A study of Drosophila melanogaster with 3 samples.

Results

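The intergenic peaks near a gene start are 418 of the 5400 peaks (7.74%) in the authors' list of reproducible CG5180 binding regions in fly embryos. A peak was included when its summit lay outside every annotated gene body, of any biotype, and the nearest transcription start site (TSS) of a protein-coding gene was more than 250 and at most 2000 bp away. Position alone chose them, so their signal, sequence, reproducibility and neighbouring genes could be compared with those of other peaks. CG5180 is a Drosophila melanogaster gene still called by its annotation number. Chromatin immunoprecipitation and sequencing (ChIP-seq) was done with an anti-GFP antibody on whole embryos of both sexes aged 0 to 16 h, from a transgenic line that stably expresses CG5180 with eGFP at its C terminus. There were 3 biological replicates, each a separate biosample per the labels, with chromatin sonicated to 200 to 800 bp, and they form a single group. The sources used here name neither the promoter that drives the tagged protein nor the state of the untagged gene, and no untagged or control library was analysed here.

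Regulatory DNA in the compact fly genome often lies within a few kilobases upstream of the gene it controls, between the core promoter, where RNA polymerase starts, and the end of the neighbouring gene. Such proximal enhancers hold clusters of short binding sites for transcription factors, and genes that pattern the embryo commonly carry several of them. Where neighbouring genes point away from each other, 1 stretch of intergenic sequence can serve both. A ChIP-seq peak marks DNA recovered with the tagged protein, directly or through other proteins, and in whole embryos weaker binding and binding in fewer cells cannot be told apart.

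The strongest of these peaks are shown first because a short word recurs in them. The lines give 151 bases centred on the summit, read 5′ to 3′ on the + strand of release 6 (dm6), for 6 of the 7 members with the highest signal value. Capitals mark GTTCGA or its reverse complement TCGAAC. The windows are chrX:1135119-1135269 for CG3655, chr2L:19363691-19363841 for dnt, chr3R:30277090-30277240 for heca, chr3R:11869824-11869974 for CG6959, chr3R:12128432-12128582 for CG4702 and chr2L:2804807-2804957 for daw. All lie between genes, upstream of the gene named. The word is in 4 of the 6 windows, with 4 copies at daw, and CG6959 and CG4702 have none.
CG3655: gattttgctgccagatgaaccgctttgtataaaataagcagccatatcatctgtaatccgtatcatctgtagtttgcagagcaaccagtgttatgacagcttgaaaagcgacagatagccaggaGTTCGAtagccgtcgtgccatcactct
dnt: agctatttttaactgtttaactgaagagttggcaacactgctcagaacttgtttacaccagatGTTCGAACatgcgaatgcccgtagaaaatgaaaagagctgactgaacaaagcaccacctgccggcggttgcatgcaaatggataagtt
heca: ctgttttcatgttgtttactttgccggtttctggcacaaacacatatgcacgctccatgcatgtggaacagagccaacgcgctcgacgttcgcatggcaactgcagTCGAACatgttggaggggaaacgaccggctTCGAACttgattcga
CG6959: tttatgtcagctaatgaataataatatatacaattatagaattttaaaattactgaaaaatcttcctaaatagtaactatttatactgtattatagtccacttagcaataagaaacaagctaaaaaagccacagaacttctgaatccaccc
CG4702: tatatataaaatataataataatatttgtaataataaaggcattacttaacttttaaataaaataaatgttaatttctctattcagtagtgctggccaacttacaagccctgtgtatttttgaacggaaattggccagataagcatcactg
daw: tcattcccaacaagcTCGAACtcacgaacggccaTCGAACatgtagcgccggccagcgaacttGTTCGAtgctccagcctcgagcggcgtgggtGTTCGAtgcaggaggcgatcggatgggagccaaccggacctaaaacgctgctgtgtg

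Around several of the copies the match runs on for 3 more bases, to CATGTTCGA. This extended word was found in 10 members, of which 8 are printed next, each with 20 bases on either side and the extended word or its reverse complement TCGAACATG in capitals. Their positions are chr2L:19363736-19363784 (dnt), chr3R:30277176-30277224 (heca), chr2L:2804821-2804869 (daw), chr3L:21808287-21808335 (eg), chr2L:5209385-5209433 (Cyp28d1), chr2L:10544590-10544638 (Trim9), chr3L:589619-589667 (Kah) and chr3R:18547142-18547190 (fru). In the lines of dnt, daw, Cyp28d1 and Trim9 further copies of the core word stand in lower case beside the capitals or overlap them.
dnt: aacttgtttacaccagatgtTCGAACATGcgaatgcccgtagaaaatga
heca: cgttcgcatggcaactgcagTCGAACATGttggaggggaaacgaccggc
daw: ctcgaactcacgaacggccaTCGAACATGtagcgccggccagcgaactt
eg: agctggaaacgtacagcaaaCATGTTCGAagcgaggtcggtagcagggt
Cyp28d1: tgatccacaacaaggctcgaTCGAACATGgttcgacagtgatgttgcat
Trim9: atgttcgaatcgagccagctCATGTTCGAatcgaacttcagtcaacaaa
Kah: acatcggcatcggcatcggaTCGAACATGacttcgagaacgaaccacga
fru: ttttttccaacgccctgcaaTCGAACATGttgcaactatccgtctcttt

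Both words were picked after these windows had been read, so their frequencies are descriptions and no test is given. Within 100 bp of the summit, GTTCGA was found in 15 of the 25 strongest members (60%, Wilson 95% interval 40.7 to 76.6). It was found in none of their own flanks, windows of the same width centred 500 bp further from the TSS (0 of 25, interval up to 13.3%). In those 15 windows the copy nearest to the summit was 0 to 74 bp from it, with a median of 17 bp, and 8 of the 15 held more than 1 copy. The extended word was found in 7 of the 25, namely at pyr, dnt, heca, daw, eg, Cyp28d1 and Trim9.

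The word was most frequent in the strongest members. When the 418 were ordered by signal value and divided into 5 groups, GTTCGA was present in 25 of 83 windows of the strongest group (30.1%, interval 21.3 to 40.7), whose signal values ran from 822 to 31711. It was present in 12 of 84 of the next group (14.3%) and in 4 of 83, 5 of 84 and 6 of 84 of the others (4.82%, 5.95% and 7.14%). The flanks of these same groups held it in 3.61%, 3.57%, 9.64%, 3.57% and 9.52% of windows. The strongest group contains the windows in which the word was noticed. Without the 25 strongest members, the 58 others of that group held it in 10 windows (17.2%, 9.64 to 28.9), against 3 of their flanks (5.17%, 1.77 to 14.1), and the extended word in 3 windows (5.17%). CATGTTCGA was present in 10 of 83 windows of the strongest group (12.05%, 6.68 to 20.8) and in 0 of the other 335 members (interval up to 1.13%).

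The replicates' own lists cover largely the same regions, so their values show the spread between libraries and are no independent support for the words. Among the peaks that met the position rule in each replicate's own 5400 strongest, the strongest group had GTTCGA in 29.8%, 27.2% and 30.5% of windows (29.1% ± 1.74, SD, n = 3) and the groups after it means of 10.5% ± 0.627, 10.5% ± 0.809, 6.64% ± 1.66 and 6.59% ± 1.62. The third group, at 9.52%, 10.9% and 10.98%, was higher there than in the reproducible list, and in replicate 2 it was above the second group (9.78%). For CATGTTCGA the strongest group had 10.7%, 9.78% and 10.98% (10.5% ± 0.627), and outside it only the second group of replicate 3 had any, 1.22%.

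**Figure D1:**
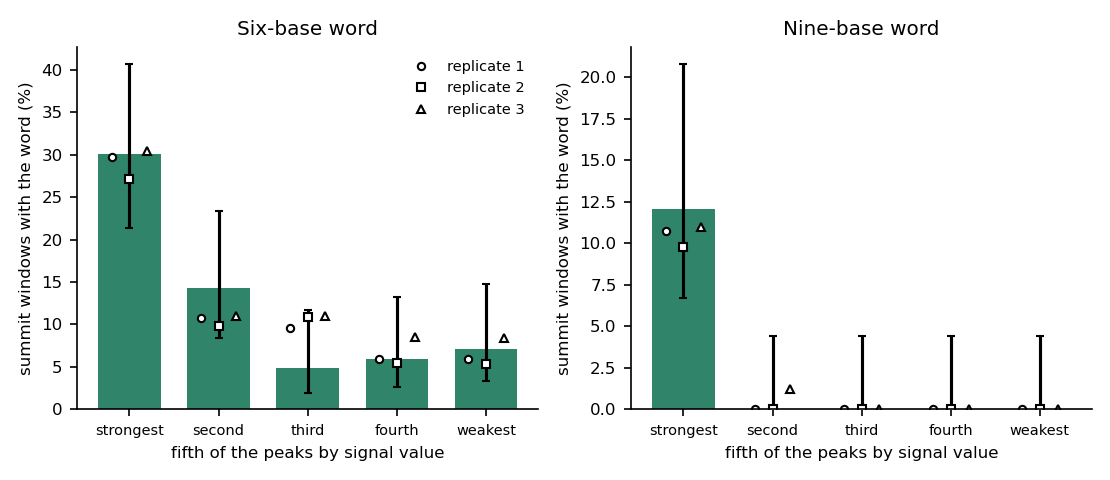
Share of summit windows (y axis, %) that hold GTTCGA (left) or CATGTTCGA (right) in 5 groups of the 418 intergenic peaks near a gene start ordered by signal value (x axis). Bars are the reproducible list with Wilson 95% intervals and symbols the 3 replicates' own lists, and the strongest group stands above the rest, at 30.1% and 12.05%.

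The word was not limited to these peaks. GTTCGA was present in 12.4% of all 418 members (52), 19.5% of promoter peaks, 11.8% of intronic, 18.1% of distal intergenic and 17.3% of exonic peaks, against 15.3% of all 5400 peaks and 9.67% of all 30000 entries in the pooled list. By its label the pooled list holds peaks and background. When every class was divided by signal in the same way, its strongest group reached 37.9% at promoters, 18.5% in introns, 27.97% in distal intergenic sequence and 29.9% in exons. CATGTTCGA was present in 2.39% of members, 1.30% of all 5400 peaks and 0.393% of the pooled list. The strongest group of each class held it in 7.76% at promoters (5.35 to 11.1) and 5.08% in distal intergenic sequence (2.35 to 10.7). In introns it was 2.37% and in exons 2.60%. The promoter and distal intergenic intervals overlap that of the strongest members (6.68 to 20.8). In the weakest groups it was 0% at promoters and in distal intergenic sequence, 0.644% in introns and 1.28% in exons. The 6 chromosome arms hold 911 copies of CATGTTCGA. Of these, 47 lie in sequence that meets the position rule, and 10 of the 47 (21.3%) were within 100 bp of a member's summit. For GTTCGA it was 75 of 2290 copies (3.28%).

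The genes nearest to the 25 strongest members had varied roles. Their signal value is the authors' own peak score, with no fixed range, and it is compared only within a list. CG3655, a gene known by its annotation number on the X chromosome, led with 31711 (X:1134049-1135970, summit 298 bp upstream of the TSS), and ranked 11th of the 5400 peaks. In the replicate lists this peak had signal values of 14138, 10553 and 7222 and ranks of 10, 10 and 14. The next was upstream of pyr, which encodes pyramus, a fibroblast growth factor (FGF) for the receptor Heartless, with 31602 and 1910 bp from the TSS (2R:11709743-11711069). Its replicate signal values were 14286, 9585 and 7879 and its ranks 9, 15 and 10. In all 3 replicates these peaks stood among the very strongest. The pyr promoter has a separate peak of lower signal value, 18650.

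Members near genes for signals and receptors came next. The peak of dnt, which encodes a Ryk-family receptor for Wnt proteins, had a signal value of 21490 at 539 bp, with replicate ranks of 24, 31 and 24. That of daw, which encodes the Activin-like ligand dawdle, had 12535 at 379 bp, with ranks of 78, 81 and 85. The peak of ed, the adhesion molecule echinoid, had 9668 at 894 bp and ranks of 103, 112 and 102, beside a promoter peak of 10124. The 3 lists placed each of these genes within a narrow band of ranks. The peak of shf, a secreted protein needed for the spread of Hedgehog, had 7901 at 345 bp, and that of mgl, the endocytic receptor Megalin, had 4442 at 272 bp beneath a promoter peak of 13395.

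At heca, the headcase gene of imaginal progenitor cells, the signal value was 16312 at 767 bp, with replicate ranks of 54, 61 and 53. The peak of eg, whose product eagle is a zinc finger protein of the nuclear receptor family in neuroblasts, had 11425 at 347 bp with ranks of 98, 83 and 84 and no promoter peak. That of ich, a zinc finger gene, had 4176 at 357 bp beneath a promoter peak of 7798. Muscle genes in the set were slow and sns. The secreted protein slowdown acts at muscle attachments, and its gene had 2 summits in 1 interval (3L:4382664-4384931), with 11469 at 536 bp and 9024 at 307 bp. The peak of sns, a receptor for myoblast fusion, had 4745 at 916 bp.

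The rest of the 25 belonged to genes of metabolism, immunity, the eye or unassigned function. CG6959 had 15585, CG4702 had 12722 and NimC3, of the Nimrod family of blood cell receptors, had 11277. CG31871 (8424), the cytochrome P450 gene Cyp28d1 (7623), the glucuronyltransferase gene GlcAT-P (7582) and CG10428 (6551) followed. The lens protein gene Crys (4865), Trim9, which encodes a ubiquitin ligase (3959), Rh5, a rhodopsin (3915), CG6885 (3564) and Achl (3540) closed the set. GlcAT-P and Trim9 had promoter peaks of higher signal value, 16358.5 and 9659, as did ich, and these intervals reach across the start site. Another reproducible summit lay 266 bp from the GlcAT-P summit, 233 bp from that of Trim9 and 217 bp from that of ich. Others of the 25 also had one close by, at 212 bp for mgl, 219 bp for CG31871, 231 bp for ed and 199 bp for Rh5. CG31871 had a promoter peak of 6235. Of the 25, only the peak of Rh5 lay downstream of its TSS, at 1865 bp. The peak of Trim9 had a matching summit within 200 bp only in replicate 3, and the other 24 had one in all 3 replicates.

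**Figure D2:**
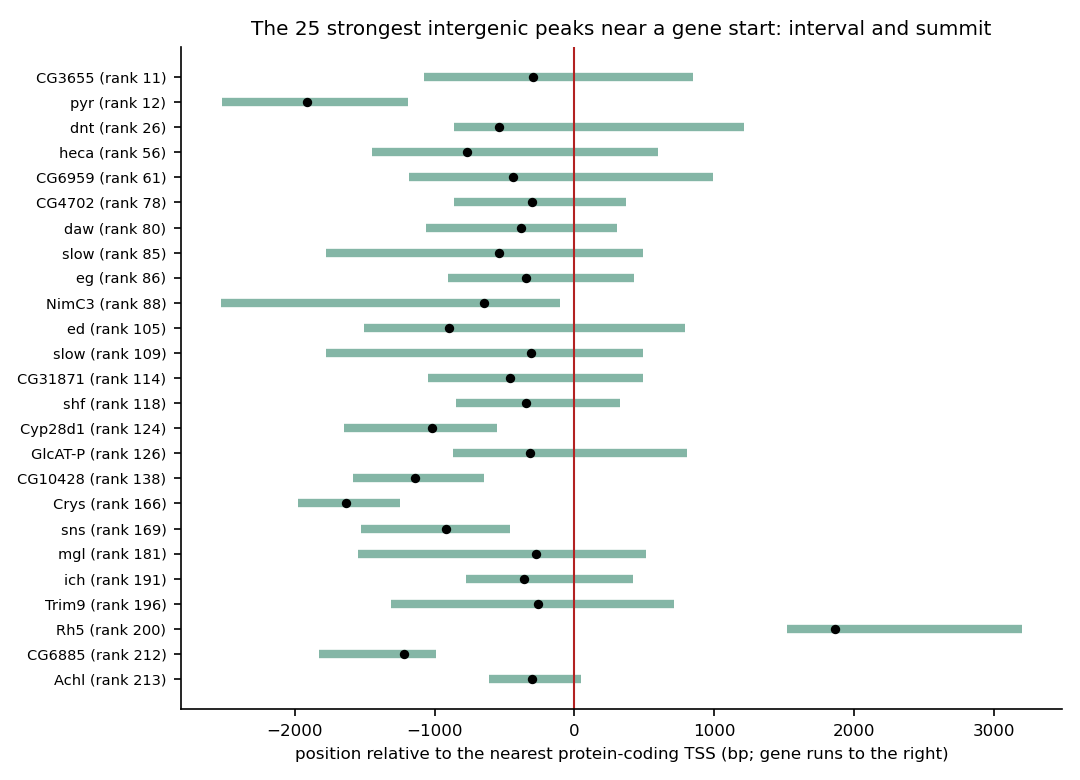
Interval (bar) and summit (dot) of the 25 strongest members by distance to the nearest protein-coding TSS (x axis, bp, gene to the right, TSS at the line), with the rank among all 5400 peaks beside each gene. In 17 of the 25 the interval reaches across the start site although the summit is upstream, and the other 8, pyr, Crys and Rh5 among them, stay clear of it.

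Over all 418, signal values ran from 183 to 31711 with a median of 351, and 60 members exceeded 1000. The commonest interval width was 464 bp, in 233 members, and the range was 117 to 2428 bp. The interval reached the nearest TSS in 37 members (8.85%), so most were separate from the start site by their whole width. The summit was upstream of the TSS in 395 (94.5%) and downstream in 23. A summit outside gene bodies can be downstream of the nearest TSS only past the end of a short gene. A non-coding TSS lay within 250 bp of 17 summits, of which 16 were non-coding RNA genes and 1 a tRNA gene.

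Members crowded towards the near end of the allowed distance. Per megabase (Mb) of sequence that meets the rule, there were 130 summits from 250 to 500 bp (173 members, Poisson 95% interval 112 to 151), 55.4 from 500 to 1000 bp (111 members, 45.6 to 66.7) and 41.1 from 1000 to 2000 bp (134 members, 34.4 to 48.7). The replicates' own lists gave 139.9 ± 18.6, 56.0 ± 2.75 and 40.7 ± 0.771 (SD, n = 3). For all 6 arms together the density of peaks was 40.3 per Mb, and for intergenic sequence more than 2000 bp from a TSS it was 21.1 per Mb. Even the farthest bin was thus nearer to the average of the arms than to distal intergenic sequence. The median distance was 579 bp.

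Peaks of the pooled list that met the same rule but overlapped no reproducible peak, 1509 in all, served as a comparison set of weaker peaks. The pooled list holds peaks and background by its label, so an unknown part of the 1509 may be background and not weak binding. The 1509 showed no such gradient, with 239.6, 217.0 and 231.8 per Mb in the 3 bins. Summits within 500 bp made up 41.4% of members (173 of 418, Wilson interval 36.8 to 46.2) and 21.1% of weaker peaks (318 of 1509, 19.1 to 23.2). Replicate lists gave 42.998% ± 3.14 and 22.6% ± 1.08 (SD, n = 3). These shares are a description with no test, because distance is what the position rule used and because any weaker peak that overlaps a reproducible peak, promoter peaks included, was left out by definition, which takes away summits near the TSS.

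**Figure D3:**
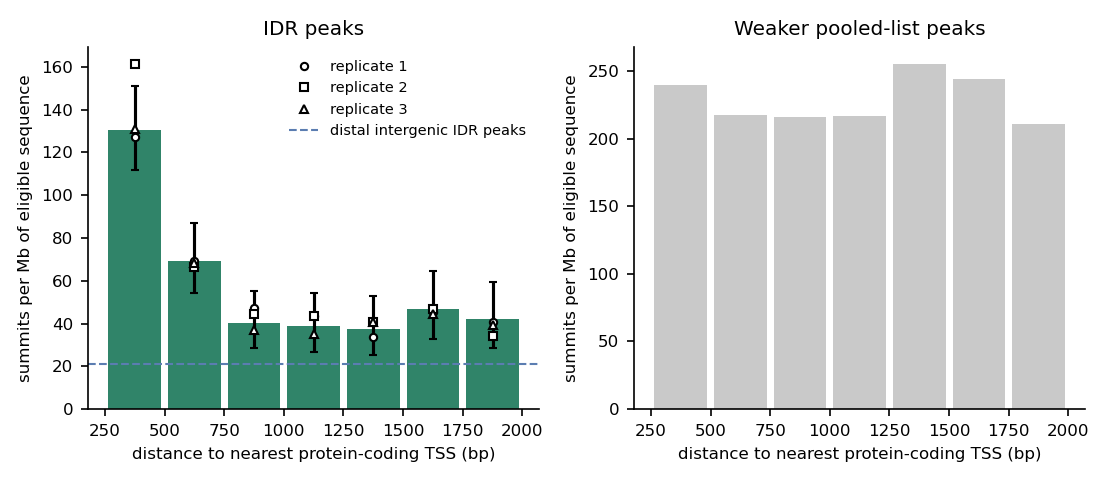
Summits per Mb of eligible sequence (y axis) by distance to the nearest protein-coding TSS in bins of 250 bp (x axis), for the 418 members (left, bars with Poisson 95% intervals, symbols for the 3 replicates' own strongest peaks, dashed line for distal intergenic peaks) and the 1509 weaker peaks (right). Density fell from 130 per Mb nearest to the start to about the level of 41.1 per Mb beyond 1000 bp in members and stayed level in weaker peaks.

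On the chromosome arms, members were spread at 70.9 per Mb on 2L, 54.8 on 2R, 71.8 on 3L, 61.7 on 3R and 58.9 on X, and the Poisson intervals of all 5 overlap. Chromosome 4 has 15 of the 5400 peaks and no member, but only 0.0455 Mb of it meets the rule, where a density of up to 81.1 per Mb would be missed.

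In strength, members lay above intronic and distal intergenic peaks, and no difference from promoter peaks passed the test. The tests of shares are over peaks, and peaks are not replicates. Signal values above the median of the whole list were found in 56.9% of members (238 of 418, 52.1 to 61.6) and 57.3% of promoter peaks, whose summit is no farther than 250 bp from the start of a coding gene (odds ratio 0.984, p = 0.912 by Fisher's exact test after Benjamini-Hochberg (BH) adjustment). The shares were 46.3% of intronic peaks (odds ratio 1.54, exact BH p = 9.70e-05) and 41.8% of distal intergenic peaks (odds ratio 1.84, exact BH p = 6.58e-06). In the replicates' own lists the shares were 56.8% ± 2.13 for members, 56.8% ± 1.46 for promoter, 45.9% ± 0.852 for intronic and 43.6% ± 2.06 for distal intergenic peaks (SD, n = 3). Members and promoter peaks overlapped between replicates, and both lay above the other classes. Among the 540 strongest peaks of the list were 12.7% of members, 15.9% of promoter, 5.67% of intronic and 9.14% of distal intergenic peaks, and here the difference from distal intergenic peaks did not pass (exact BH p = 0.110). Both calls were lost in the stronger 2700 peaks (exact BH p = 0.0694 each) and for summits over 1000 bp from the TSS (exact BH p = 0.274 for intronic and 0.101 for distal intergenic peaks).

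Members were recovered well by the single replicates. A peak was counted as recovered when a summit of the replicate's own 5400 strongest peaks lay within 200 bp. All 3 replicates recovered 311 of 418 members (74.4%, 70.01 to 78.4), against 68.7% of all 5400 peaks, 72.7% of promoter peaks (odds ratio 1.09, BH p = 0.498 by Fisher's exact test), 67.2% of intronic peaks (1.42, exact BH p = 0.00536) and 62.1% of distal intergenic peaks (1.77, exact BH p = 1.29e-04). By replicate the shares were 88.3%, 89.7% and 84.7% of members (87.6% ± 2.59, SD, n = 3), 88.0% ± 0.655 of promoter, 85.2% ± 2.63 of intronic and 82.6% ± 4.98 of distal intergenic peaks. The spread between replicates is wider than the gap between members and intronic peaks. The replicate lists entered the making of the reproducible list, so high recovery as such was built in. Recovery also required a high rank by signal in each replicate. Its differences between classes therefore cannot be separated from those in signal value given above. In whole replicate lists both differences turned direction, with log2 odds ratios of -0.49 against intronic and -0.66 against distal intergenic peaks (exact BH p = 0.353 for both). The intronic call was lost without replicate 2 (exact BH p = 0.0741) and without replicate 3 (exact BH p = 0.0875), and both were lost over 1000 bp. In the stronger 2700 peaks neither passed (exact BH p = 0.725 for both), with log2 odds ratios of 0.64 and 0.69 beside 0.50 and 0.83 in the whole list.

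The sequence at the summits was poorer in G and C than at promoter and distal intergenic peaks. The median GC content of the sequence within 100 bp of the summit was 37.8% in members, 43.3% at promoters, 38.8% in introns and 40.8% in distal intergenic peaks. Windows above the median of all 5400 peaks made up 37.1% of members (32.6 to 41.8), 58.3% of promoter peaks (odds ratio 0.422, BH p = 2.97e-14 by Fisher's exact test) and 50.9% of distal intergenic peaks (0.568, exact BH p = 2.46e-05). The replicates gave 38.2% ± 1.87, 56.3% ± 1.62 and 51.5% ± 2.49 (SD, n = 3) without overlap. Against intronic peaks (43.4%) the odds ratio of 0.769 (exact BH p = 0.0180) did not hold up. It was lost without replicate 2 (log2 odds ratio -0.30, exact BH p = 0.1004), with 50 bp on each side of the summit (-0.072, exact BH p = 0.666), in the stronger 2700 peaks, with protein-coding gene bodies, with TSSs of all biotypes and over 1000 bp. In the replicates' own lists it passed in replicate 2 only (exact BH p = 0.164, 0.00706 and 0.0743).

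The genes on either side of a member pointed away from each other in 173 cases (41.4%), in the same direction in 236 (56.5%) and towards each other in 9 (2.15%). Among weaker peaks the shares were 37.1%, 53.0% and 9.81%. For divergent neighbours the odds ratio was 1.20 and did not pass (Fisher's exact test, p = 0.111). The replicates gave 41.6% ± 0.575 and 37.7% ± 1.28 (SD, n = 3). Weaker peaks lost summits near the TSS by definition, and the orientation test did not take this into account. The intergenic interval had a median of 2830 bp around members and 3634 bp around weaker peaks.

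Many members had company. Another reproducible summit lay within 500 bp of 128 (30.6%) and within 1000 bp of 155 (37.1%), and the nearest gene had a promoter peak of its own in 117 (28.0%, 23.9 to 32.5). Among weaker peaks it was 13.7%, a share lowered by definition, since those that overlap a reproducible peak were left out, so no test is given. In the replicates' lists this was 28.99% ± 0.870 and 13.5% ± 1.32 (SD, n = 3). Members stronger than the promoter peak were 44 of the 117. With only the strongest of overlapping peaks kept, the log2 odds ratio between the 2 sets moved from 1.29 to 0.43, also a description only. The members lay in 350 separate intergenic intervals, of which 60 held more than 1.

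Rh5, a rhodopsin gene of photoreceptors, had 5 members, the most of any gene. They lay on both sides of the gene, with signal values of 3915 (2L:12009897-12011581) downstream and 1915, 448, 256 and 253 upstream. The genes by, whose product blistery is the tensin of integrin adhesion sites, and Atet, of the ABC transporter family, had 3 each. At by the signal values were 531, 386 and 231 and at Atet 290, 273 and 194. These 3 genes were named here after their counts were seen.

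The members' nearest genes were 356 of 13945 protein-coding genes (2.55%), and 299 of them had a single member. Nearness does not show which gene a region acts on. The gene lists are described by their counts beside the 2.55% of all genes, with no test. A gene can be on more than 1 list. Of the zinc finger list, nej is also on that of the Dpp and Activin pathway and CrebA on that of bHLH and bZIP regulators. The counts were 5 of 11 Enhancer of split complex genes (3 with TSSs of all biotypes) and 2 of 6 FGF genes. On the zinc finger list they were 6 of 28, and for the Ras-MAPK relay 3 of 14. Gap and head genes had 3 of 18, dorsoventral factors 3 of 19 and cadherins and planar polarity genes 3 of 21. There were also 4 of 33 axon guidance genes, 3 of 26 for mesoderm and myoblast fusion, 3 of 26 for the Wnt pathway and 3 of 32 for the Polycomb and trithorax groups.

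**Figure D4:**
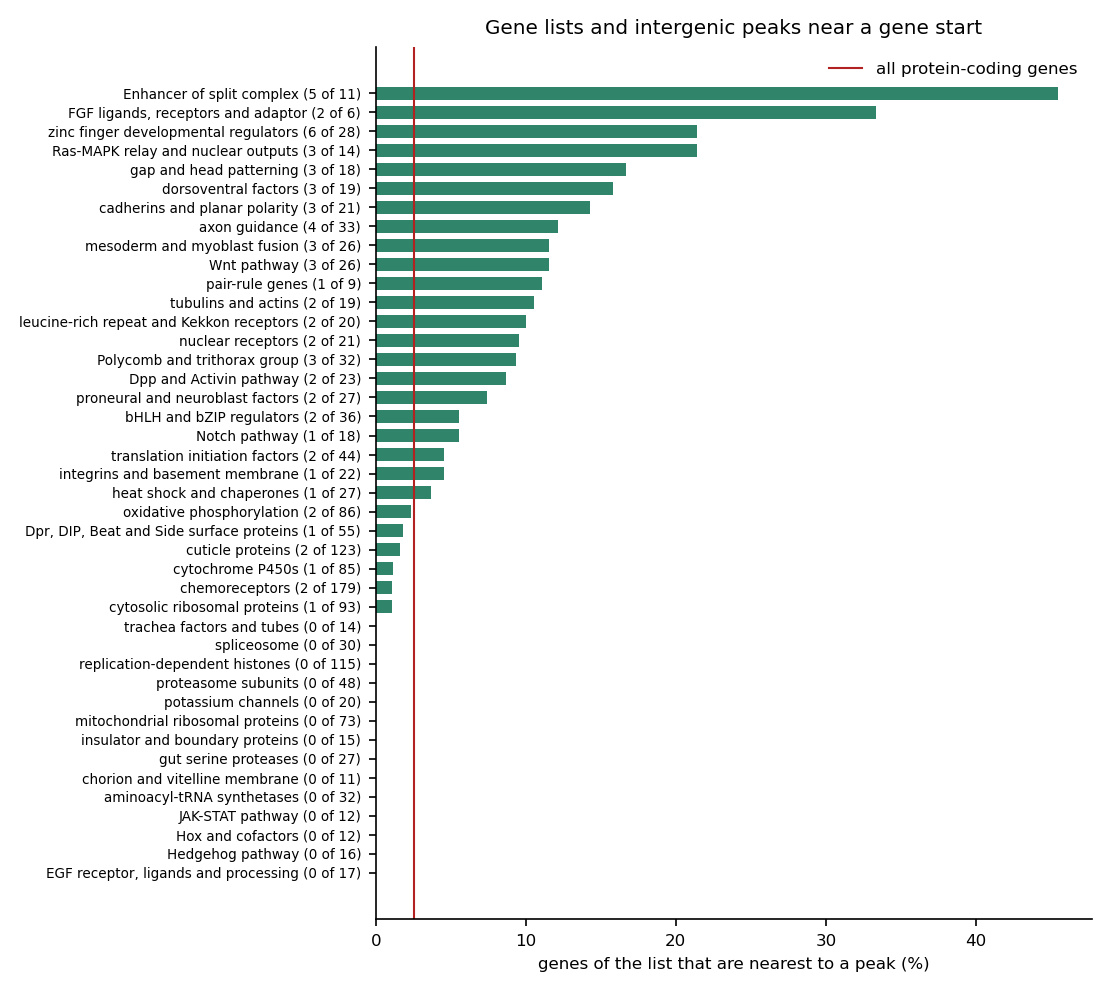
Share of each gene list's members that are the nearest gene of an intergenic peak near a gene start (x axis, %), with the counts beside each list's name and a line at the 2.55% of all protein-coding genes. Enhancer of split genes lead with 5 of 11, and several lists hold none, those of Hox, Hedgehog and proteasome genes among them.

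Of the FGF genes, ths, which encodes thisbe, the partner ligand of pyr for Heartless, had a member of 2616 at 949 bp (2R:11755370-11756146) and replicate signal values of 1114, 856 and 667. Its rank was 260, 291 and 264 in the replicates. In the Ras-MAPK relay, aop, which encodes the repressor Yan, had signal values of 587 and 266 and pnt, which encodes the activator that competes with Yan, had 199.9. The pnt peak was weak in all replicates, with ranks of 5878, 4299 and 10404, so 1 of 3 placed it among its 5400 strongest.

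Of the zinc finger and other regulators, nej, the CBP acetyltransferase, had 972 and replicate ranks of 762, 540 and 827, and chn, whose product charlatan is a zinc finger factor of neural development, had 903 and ranks of 631, 894 and 781. The strongest members near Polycomb and trithorax group genes were those of tara (1227) and ph-d (946), a subunit of Polycomb repressive complex 1. Ranks were 498, 464 and 576 for tara and 897, 515 and 773 for ph-d. The gap and head genes had weak members only, with 237 at bcd, the anterior morphogen, 188 at knrl and 185 at cad, the posterior homeodomain factor. Replicate ranks were 3509, 4385 and 4624 at bcd and 5091, 7908 and 7781 at cad.

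In the mesoderm list, after sns, the FoxF gene bin of visceral mesoderm had 2 summits of 933 and 699.6, and lbl, a homeodomain gene of muscle founders, had 443. The Wnt list had Wnt2, a ligand gene, with 1822 and replicate ranks of 338, 378 and 329, the receptor gene fz with 390 and Wnt6 with 238. In axon guidance dnt was followed far behind by Sema5c (331) and robo2 (292). The dorsoventral list had ths, the T-box gene Doc2 (387) and vnd, a homeodomain gene of the ventral nerve cord (322). The cadherin list had Cad96Cb (625), Cad89D (366) and ds (322), which encodes dachsous of planar polarity. The Toll family genes Toll-7 and Tollo had 1133 and 915, and the actin gene Act5C had 567.

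Further lists above the share of all genes were tubulins and actins (2 of 19) and leucine-rich repeat receptors (2 of 20). So were nuclear receptors (2 of 21), the Dpp and Activin pathway (2 of 23) and proneural factors (2 of 27). The same held for bHLH and bZIP regulators (2 of 36) and translation initiation factors (2 of 44). With 1 gene each were the Notch pathway (of 18), integrins (of 22) and heat shock genes (of 27). On the pair-rule list it was 1 of 9, the gene Ppa (partner of paired). For cytosolic ribosomal proteins it was 1 of 93, RpS23 (189), whereas 58 of the 93 had a promoter peak. Chemoreceptors had 2 of 179, cuticle proteins 2 of 123, oxidative phosphorylation genes 2 of 86 and cytochrome P450 genes 1 of 85. None was found for 17 genes of the EGF receptor, its ligands and their processing, although 9 had a promoter peak, and none for 12 Hox genes and cofactors, of which 6 had one. There was none either for 12 JAK-STAT, 16 Hedgehog, 14 tracheal, 73 mitochondrial ribosomal protein and 48 proteasome genes, nor for the replication-dependent histone genes, near-identical copies in which reads are hard to place.

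The Enhancer of split complex is a cluster of Notch target genes on arm 3R that encode basic helix-loop-helix repressors and small proteins of the Bearded family. With TSSs of all biotypes the complex had 3 genes with members, and with those of protein-coding genes 5, namely E(spl)m3-HLH (879), E(spl)m7-HLH (699.5), E(spl)mgamma-HLH (619), E(spl)malpha-BFM (454) and E(spl)m2-BFM (304), and 1 of the 11 genes had a promoter peak. In the replicates' own lists the count was 4, 6 and 6 (5.33 ± 1.15, SD, n = 3). The strongest, 390 bp upstream of E(spl)m3-HLH, had replicate signal values of 365, 320 and 206 and ranks of 716, 752 and 820. That of E(spl)m7-HLH had 268, 279 and 147, and ranks of 1052, 895 and 1273. The stronger E(spl)m3-HLH summit was nearer to the TSS of lncRNA:CR43644, at 357 bp, than to that of E(spl)m3-HLH. The E(spl)mgamma-HLH summit lay 1229 bp downstream of its TSS, past the end of the gene, and 121 bp from the TSS of lncRNA:CR45037. Each of the 5 genes had a member matched within 200 bp by a summit among the 5400 strongest of every replicate. A matching summit need not itself meet the position rule or have the same nearest gene, so this can differ from the counts above. E(spl)m3-HLH had a second member of 285.

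**Figure D5:**
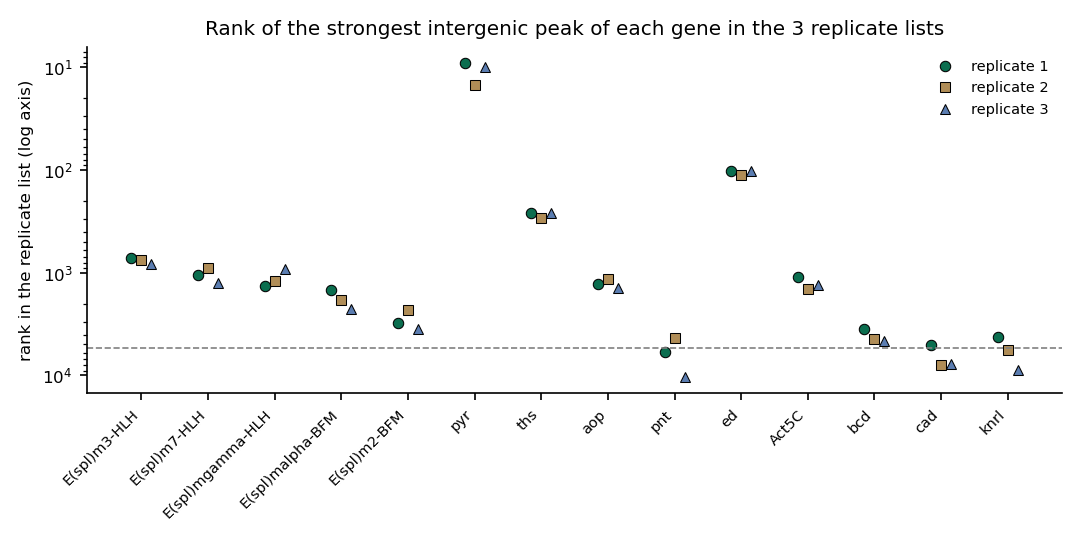
Rank of the strongest member of each of 14 genes in the 3 replicate lists (y axis, log scale, rank 1 at the top, dashed line at 5400). The lists kept pyr, ed, ths and the Enhancer of split genes above the line, while those of pnt, cad and knrl crossed it.

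Windows of the 2 strongest Enhancer of split members are shown because, unlike 15 of the 25 strongest members, none of the 6 summits in the complex had GTTCGA within 100 bp. Their signal values, 285 to 879, run from the strongest group of members down to the fourth. Those groups held GTTCGA in 30.1%, 14.3%, 4.82% and 5.95% of windows, so its absence was not shown to be particular to the complex. They were chosen after their values were seen. The lines are chr3R:26021333-26021533 and chr3R:26036607-26036807, read on the + strand of dm6. Capitals mark the Sox consensus AACAAT on either strand, described further on, which was present once in 5 of the 6 windows. The consensus GTGGGAA of Su(H), the E-box CAGCTG and the GAGA factor's GAGAGAG were in none of the 6, which says only that these letters are not in these windows. Over all members Sox, GAGAGAG and GTTCGA were in 24.6%, 6.22% and 12.4% of windows. The 2 windows shown had a GC content of 23.4% and 26.9%, against a median of 37.8% in all members.
E(spl)m3-HLH: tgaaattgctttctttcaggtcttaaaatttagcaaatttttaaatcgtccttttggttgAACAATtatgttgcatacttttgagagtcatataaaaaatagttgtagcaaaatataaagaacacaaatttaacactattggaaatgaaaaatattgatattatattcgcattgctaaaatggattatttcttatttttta
E(spl)m7-HLH: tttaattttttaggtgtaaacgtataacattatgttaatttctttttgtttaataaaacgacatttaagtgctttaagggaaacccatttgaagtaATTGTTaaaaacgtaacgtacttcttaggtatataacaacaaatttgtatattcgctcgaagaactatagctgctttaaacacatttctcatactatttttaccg

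On either strand and up to 100 bp from the summit, 34 consensus sequences were searched, and 6 differed between members and promoter peaks (17.6%, Fisher's exact test, BH p under 0.05). The sequences more frequent in members were TTTATG of Caudal, a homeodomain factor (22.97% against 16.1%, exact BH p = 0.0115), and AACAAT of Sox factors (24.6% against 17.7%, exact BH p = 0.0115). Those less frequent were the initiator TCAGT (30.9% against 40.9%, exact BH p = 0.00436), TATCGATA of the promoter factor DREF (0.239% against 2.98%, exact BH p = 0.00436), the BEAF-32 core CGATA (20.8% against 29.1%, exact BH p = 0.00673) and AACCGC of Runt (5.74% against 9.96%, exact BH p = 0.0333). CGATA is contained in TATCGATA. By the position rule a promoter window can hold a coding TSS and a member's window cannot. The tests therefore cannot separate the differences in the initiator and DREF from this rule. Members' windows also had a lower median GC content than promoter windows (37.8% against 43.3%), which the tests did not take into account. A match is a run of letters and not a shown binding site.

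Over all 5400 peaks the shares were 19.3% for TTTATG, 21.3% for AACAAT, 35.4% for TCAGT, 1.07% for TATCGATA, 24.1% for CGATA and 7.28% for AACCGC, and over the pooled list 21.7%, 20.6%, 32.4%, 0.837%, 22.2% and 6.56%. The log2 odds ratios in the replicates' own lists were 0.59 ± 0.097 for Caudal, 0.39 ± 0.098 for Sox, -0.53 ± 0.10 for the initiator and -2.42 ± 0.71 for DREF (SD, n = 3), with the same sign in every replicate. Leaving out a replicate left 1 or 2 of the 6 calls. Caudal, Sox, Runt and the BEAF-32 core each missed the threshold without replicate 1, without replicate 2 and without replicate 3, and DREF without replicate 2 (exact BH p = 0.0604).

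No consensus sequence separated members from weaker peaks under the same rule (0 of 34 by Fisher's exact test, lowest BH p = 0.296, and 3 at an unadjusted p under 0.05). The same held against distal intergenic peaks (0, lowest exact BH p = 0.523, 2 unadjusted) and against the members' own flanks 500 bp away (0 by the exact McNemar test, lowest BH p = 0.319, 4 unadjusted). The motif differences above were therefore found against promoter peaks only, among these 4 comparisons.

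Among all 2080 6-mers, counted together with their reverse complements, 1 differed between members and weaker peaks (0.0481%), and 209 had an unadjusted p under 0.05. This was ATGTTG, present in 92 of 418 members (22.0%) and 197 of 1509 weaker peaks (13.1%). The log2 odds ratio was 0.91 and the BH p, by Fisher's exact test, 0.0270. The replicates gave 1.02 ± 0.075 (SD, n = 3). It was present in 14.7% of promoter, 15.6% of intronic, 17.9% of distal intergenic and 16.3% of all 5400 peaks, and in 14.2% of the pooled list. GTTCGA, in the same test, was at 12.4% against 7.49% and did not pass (exact BH p = 0.247). The 6-mer tests did not take into account that weaker peaks lost summits near the TSS by definition. Nor did they take into account the lower median GC content of members' windows (37.8% against 40.3% in weaker peaks). The ATGTTG call was lost with windows of 50 bp on each side (log2 odds ratio 1.01, exact BH p = 0.179), with protein-coding gene bodies (exact BH p = 0.112), with TSSs of all biotypes (exact BH p = 0.0701), and with summits up to 1000 bp (exact BH p = 0.191) or over 1000 bp (exact BH p = 0.755) from the TSS.

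The strongest members that hold this 6-mer or the Sox or Caudal consensus show these words in their surroundings, with the word in capitals on whichever strand it was found. Those of dnt (chr2L:19363660-19363705) and heca (chr3R:30277078-30277123) hold ATGTTG. Those of CG4702 (chr3R:12128392-12128437) and shf (chrX:6780067-6780112) hold AACAAT, and that of CG6959 (chr3R:11869804-11869849) holds TTTATG. In the window of heca shown first, a copy of ATGTTG overlaps the extended word.
dnt: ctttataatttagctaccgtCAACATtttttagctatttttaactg
heca: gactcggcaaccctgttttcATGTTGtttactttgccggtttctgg
CG4702: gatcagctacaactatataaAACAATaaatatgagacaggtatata
shf: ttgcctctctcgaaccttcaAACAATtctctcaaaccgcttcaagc
CG6959: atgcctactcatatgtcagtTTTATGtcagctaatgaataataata

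At the limits of the rule, the members nearest to the lower bound were those of speck (253 bp, signal value 193), CG9932 (254 bp, 422) and Sdb (254 bp, 349). Just outside lay summits at Mcm7 (250 bp, 323) and CG9338 (250 bp, 974). At the upper bound were CG4218 (1997 bp, 574) and CG13786 (1995 bp, 818), and just outside Mes2 (2010 bp, 353) and ptc (2011 bp, 212). Signal values on both sides of each limit were of the same order.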

How the data were processed

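ChIP-seq peak lists from 3 replicates were used. Per the README notes deposited by the authors, 1 additional file was used with the alignments of a replicate to make its list and with those of all 3 to make the pooled list. The reproducible list (irreproducible discovery rate, IDR) was made from these lists. For the aligner, peak caller, IDR threshold and versions, nothing was given in the sources used here. The deposited signal value is a score of the authors' caller, not scaled between lists. The deposited −log10 q-value was not used for tests: its highest value, 3.88, is shared by 3783 of 5400 peaks. Because read depth is unknown, precision rests on numbers of peaks, with Wilson and Poisson 95% intervals that cover counting error only. Each replicate list holds 30000 peaks. Every column of values used was matched to its sample or pool, and the lists on the older build dm3 were not used.

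Coordinates are 1-based on dm6 (release 6), sequences came from the RefSeq copy of that release, and gene models from Ensembl release 115. Summits were placed in the first class that applied: promoter (within 250 bp of a protein-coding TSS), near intergenic, distal intergenic, intronic or exonic. Shares were compared by Fisher's exact test and flanks by the exact McNemar test, two-sided, with BH adjustment over the 3 classes, 34 motifs or 2080 6-mers and a threshold of 0.05. Of 466 gene symbols given in lists, 444 were found. Python 3.11.15, SciPy 1.17.1, NumPy 2.4.6, pandas 2.3.3 and matplotlib 3.10.9 were used, and the classing and tests were tested on simulated data. The members and lists were chosen with earlier results of these data known. Named genes are those nearest to the 25 strongest members, up to 3 per list with the highest signal value, and the strongest holders of the motifs described, and others are said to have been chosen later. Alternatives were leaving out each replicate (keeping peaks found by both others or, for recovery, asking it of both others), other peak sets, gene bodies, TSS sets, distances, windows, flanks and weaker peaks.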

Additional observations from a re-analysis of the deposited data

How the results depend on the processing

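Values are log2 odds ratios of members against the class named, unless said otherwise. The number of members was 418, and was 329 to 337 with a replicate left out, 238 in the stronger 2700 peaks and 134 with summits over 1000 bp from the TSS, a setting added after the data were seen. Density (63.4 per Mb) was 49.9 to 51.1 with a replicate left out, 52.3 with the strongest of overlapping peaks, 36.1 in the stronger 2700, 57.7 with TSSs of all biotypes, 85.2 up to 1000 bp and 41.1 over 1000 bp. Distinct nearest genes (356) were 278 to 287, 212 in the stronger 2700 and 124 over 1000 bp.

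The share above the median signal against promoter peaks (-0.024) reversed with the strongest of overlapping peaks (0.052) and up to 1000 bp (0.11). Against intronic peaks (0.62) it lost the call in the stronger 2700 (0.44) and over 1000 bp (0.35), and against distal intergenic peaks (0.88) in the stronger 2700 (0.48), with the 540 strongest peaks counted instead (0.53) and over 1000 bp (0.61). High GC against intronic peaks (-0.38) was -0.36 to -0.30 without single replicates, and did not pass in the stronger 2700 (-0.089), with protein-coding gene bodies (-0.27), TSSs of all biotypes (-0.24), windows of 50 bp each side (-0.072) or over 1000 bp (-0.18). Recovery against promoter peaks (0.13) was -0.11 to 0.16 without single replicates, -0.0053 with matching within 100 bp and -0.021 over 1000 bp. Against intronic peaks (0.50) it was 0.36 to 0.46 without single replicates, losing the call without replicate 2 and without replicate 3, and 0.64 in the stronger 2700, -0.49 in whole replicate lists and 0.35 over 1000 bp. Against distal intergenic peaks (0.83) it was 0.56 to 0.84 without single replicates, 0.69 in the stronger 2700, -0.66 in whole lists and 0.68 over 1000 bp. Divergent neighbours (0.26) passed with TSSs of all biotypes (0.38) and were at -0.0066 over 1000 bp. Promoter co-peaks against weaker peaks (1.29), a description with no test, were at 0.43 with the strongest of overlapping peaks.

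Against weaker peaks 1 motif passed over 1000 bp, none passed under the other settings, and 1 passed in replicate 1's own list. Against promoter peaks the 6 motifs became 1 to 2 without single replicates, 1 in the stronger 2700, 1 up to 1000 bp and 1 over 1000 bp. The count of 6-mers (1) was 1 to 2 without single replicates, 4 in the stronger 2700, 2 with TSSs of all biotypes (ATGTTG not among them) and 0 with protein-coding gene bodies, up to 1000 bp, with windows of 50 bp each side and over 1000 bp. GTTCGA in the strongest group of members (30.1%) ranged from 22.9% with windows of 50 bp each side to 44.7% in the stronger 2700, and CATGTTCGA (12.05%) from 8.43% to 19.1% under the same settings. Members near the Enhancer of split complex (5) were 3 with TSSs of all biotypes and 3 with either distance range. Of the recomputed main results, counts and densities included, 191 stayed the same by direction and threshold or, without a test, within 1.5 times or the replicate spread, whereas 26 moved, 8 reversed, 18 lost the call and 1 gained it. This tally includes the shares within 500 bp and with a promoter peak, counted by threshold although no test of them is given above. The cause of the other changes was not tested. No paired analysis was possible because there is 1 group. Read depth is unknown, and no control library was analysed here.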
